A study of Mus musculus with 6 samples.

Results

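Red cell development was read through 9 genes of the erythroid programme in sorted blood progenitors. The genes are the transcription regulators Gata1, Klf1 and Zfpm1, the receptors Epor and Tfrc, the carbonic anhydrases Car1 and Car2, and the alpha globins Hba-a1 and Hba-a2. They were chosen by symbol, and all 9 were found among the 22475 genes of the deposited table. RNA came from Lin-, cKit+, Sca1+ cells of mouse bone marrow, a fraction rich in haematopoietic stem cells and multipotent progenitors. The control group (FLT3-ITD) was homozygous for the FLT3-ITD mutation, a duplicated stretch within the receptor kinase FLT3 that makes it signal without its ligand, and had wild type miR-155. The knockout group (FLT3-ITD miR-155 KO, called KO here) carried the same homozygous FLT3-ITD mutation and a homozygous deletion of miR-155. So both groups carry the FLT3 mutation, and no group with normal FLT3 was used here. Each group had 3 libraries, each made from the pooled RNA of 3 mice, so p-values measure the spread between pools. Neither age nor sex of the mice is given in the sources used here. Values of 3 libraries are given in the order of their replicate numbers, 1, 2 and 3.

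Erythroid cells arise from stem and progenitor cells through stages in which GATA1 and its partner FOG1, the product of Zfpm1, switch on the red cell programme. KLF1 then activates globin and membrane genes, and signalling through the erythropoietin receptor keeps the precursors alive. Iron enters through the transferrin receptor, the product of Tfrc, and globin is made last and in very large amounts. Gata1 is also used by megakaryocytes, mast cells and eosinophils, Car2 by many other cells, and Tfrc by most dividing cells, so these genes are not markers of red cell precursors on their own.

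The missing microRNA is shown first, because its seed guides which transcripts it can pair with. The mature miR-155-5p (RefSeq, GRCm38.p6, chromosome 16, 84714143 to 84714165) is printed 5' to 3' with its seed, bases 2 to 8, in capitals.
mmu-miR-155-5p: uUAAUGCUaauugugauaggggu
The longest annotated 3' UTR of each of the 9 genes was searched for the 8mer AGCATTAA and for the shorter words AGCATTA and GCATTAA, which lie within it. None of the 9 held the 8mer or the first 7mer, which were present in 2.99% and 8.28% of 21039 genes with a 3' UTR. Tfrc alone held a match, the 7mer GCATTAA, which 7.91% of genes held. It lies at position 309 of the 2458 bases of the 3' UTR of Tfrc-201, and is printed 5' to 3' with the matched letters in capitals.
Tfrc: tatatgtcctgaggGCATTAActagtg
A match is a description of the letters and not of binding.

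Promoter windows of 4 of the genes are printed next, because GATA1 binds short GATA boxes and because the 2 alpha globin genes have nearly the same sequence. RefSeq (GRCm38.p6) held windows for 7 of the 9 genes, each 300 bases long and ending just after a gene start. GATA boxes were searched on both strands as AGATAA and as TGATAA, and with a final G as AGATAG and as TGATAG, and were present in 29.8% of 32851 such windows. The motif CCNCNCCC, a KLF1 consensus that can overlap itself, was searched in the same way and was present in 49.5% of the windows and in those of Gata1, Zfpm1, Epor and Tfrc. One box each was found in Klf1, Epor, Hba-a1 and Hba-a2, and none in Gata1, Zfpm1 or Tfrc. The capitals mark the boxes, which read in reverse complement in Klf1 (TTATCA) and Epor (TTATCT), and the sequences run 5' to 3' on the strand of the gene.
Klf1 (chr8:84901732-84902031, plus strand): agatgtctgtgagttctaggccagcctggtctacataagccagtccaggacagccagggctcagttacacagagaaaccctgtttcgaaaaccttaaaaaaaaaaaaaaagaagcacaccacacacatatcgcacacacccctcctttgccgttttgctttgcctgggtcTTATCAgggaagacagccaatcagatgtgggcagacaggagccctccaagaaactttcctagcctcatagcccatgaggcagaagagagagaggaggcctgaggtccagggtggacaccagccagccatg
Epor (chr9:21963527-21963826, minus strand): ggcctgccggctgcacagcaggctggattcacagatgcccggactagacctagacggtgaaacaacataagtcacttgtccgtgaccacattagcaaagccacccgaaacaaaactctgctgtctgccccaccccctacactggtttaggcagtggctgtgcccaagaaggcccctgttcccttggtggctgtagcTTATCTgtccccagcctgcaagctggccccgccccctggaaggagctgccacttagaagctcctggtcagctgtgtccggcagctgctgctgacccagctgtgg
Hba-a1 (chr11:32283422-32283721, plus strand): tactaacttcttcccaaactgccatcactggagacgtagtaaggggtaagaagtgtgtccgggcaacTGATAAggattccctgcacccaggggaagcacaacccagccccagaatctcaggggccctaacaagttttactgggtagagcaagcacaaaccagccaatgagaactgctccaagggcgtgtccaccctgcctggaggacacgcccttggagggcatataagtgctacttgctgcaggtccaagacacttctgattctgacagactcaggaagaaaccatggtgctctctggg
Hba-a2 (chr11:32296242-32296541, plus strand): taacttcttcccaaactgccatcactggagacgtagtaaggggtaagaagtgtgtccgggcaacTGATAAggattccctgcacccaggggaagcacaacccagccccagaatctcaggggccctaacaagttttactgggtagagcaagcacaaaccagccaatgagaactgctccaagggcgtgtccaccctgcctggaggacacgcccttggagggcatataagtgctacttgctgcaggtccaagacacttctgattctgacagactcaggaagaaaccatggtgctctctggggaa
Counted from the RefSeq start that each window was built on, which is not the GENCODE gene start printed with the values, the box begins 80 bases upstream in Klf1, 54 in Epor, 183 in Hba-a1 and 186 in Hba-a2. After a shift of 3 bases, the 2 globin windows were the same over all 297 bases compared. Their coding sequences of 426 bases differed at 1 position, C381T (Hba-a1 base first, counted from the start codon). Reads from Hba-a1 and Hba-a2 can therefore be split or dropped depending on the counting, and their separate counts are uncertain.

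Library totals lay between 6843129 and 9443615 counts. The gate genes Kit (242 to 387 CPM, that is counts relative to TMM-adjusted library totals) and Ly6a, which encodes Sca1 (105 to 128 CPM), were present in every library. The transcript at the miR-155 host locus, Gm26667, had 33, 48 and 36 counts in the control libraries against 4, 14 and 4 in the KO. Both libraries of number 1 stood apart in macrophage genes: all 16 macrophage genes in the table were higher there than in the other 4 libraries. Of all genes tested, 16.1% had both libraries of number 1 above the other 4. The summed level of the 16 macrophage genes was 961 CPM in control replicate 1 and 675 CPM in KO replicate 1. It was 84.8 to 190 CPM in the others, and none of the 16 was at 0 over all libraries. Values without both libraries of number 1 are therefore also given below for the tested members, the summed alpha globins and some of the lists.

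Per gene length, the 9 genes fell into a high, a middle and a low tier. The scale is the deposited FPKM (fragments scaled to gene length and library size), on which nothing was tested. Car2, a cytosolic carbonic anhydrase, had the highest median level, 109.7 FPKM (35.7 to 149 over the 6 libraries), and Tfrc followed with 49.8 FPKM (38.4 to 57.3). These 2 ranges overlapped. Car1, the carbonic anhydrase that marks erythroid colony-forming progenitors more narrowly, had a median of 6.81 FPKM (4.43 to 10.9), and Zfpm1 one of 5.71 FPKM (2.67 to 8.18). The ranges of Car1 and Zfpm1 overlapped each other and lay below every value of Tfrc. Klf1 (median 0.974, 0.600 to 1.18 FPKM), Gata1 (0.653, 0.382 to 0.956) and Epor (0.295, 0.153 to 0.753) formed the low tier, in which each neighbour's range overlapped the next. All values of Klf1, Gata1 and Epor lay below the lowest of Zfpm1. Hba-a1 (median 0.645 FPKM, 0 to 6.39) and Hba-a2 (0.197 FPKM, 0 to 4.29) crossed the tiers, from libraries listed at 0 to libraries at the level of Zfpm1.

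**Figure D1:**
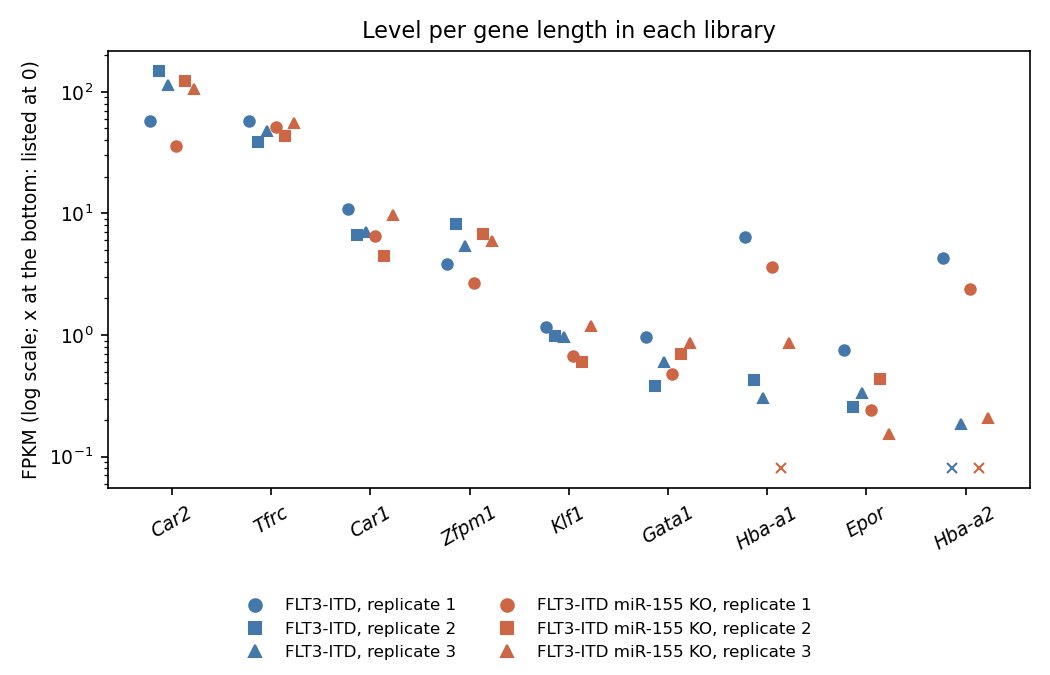
Deposited FPKM (log axis) of the 9 erythroid genes in each of the 6 libraries, ordered by median; colour gives the group, shape the replicate number, and crosses at the bottom mark values listed at 0. Car2 and Tfrc lie above 35 FPKM in every library, whereas the alpha globins run from 0 to 6.39 FPKM.

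The comparison of the KO with the control group asked whether the absence of miR-155 goes with a change of these genes. None of the 9 genes was called different. Of the 6 that passed the filter on low counts, 0 were past an adjusted p of 0.05 in edgeR's quasi-likelihood test, against 0.159% of all 13217 genes tested. In that edgeR test an unadjusted p under 0.05 was reached by 0 of 6, against 3.9% of all genes. DESeq2 called 0 of the 6, against 0.961% of all genes, and limma-voom called 0. Fitted without the low-count filter, 0 of 9 were called, against 0.432% of all genes. At these background shares, 0 members called is no result about the members. Their median log2 fold change (KO over control) was -0.22, with 4 of 6 below 0, against 0.001 over all genes tested. Without both libraries of number 1 the median was -0.04. In none of the 9 genes did the 2 groups separate in CPM, as 8.22% of all genes tested did.

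**Figure D2:**
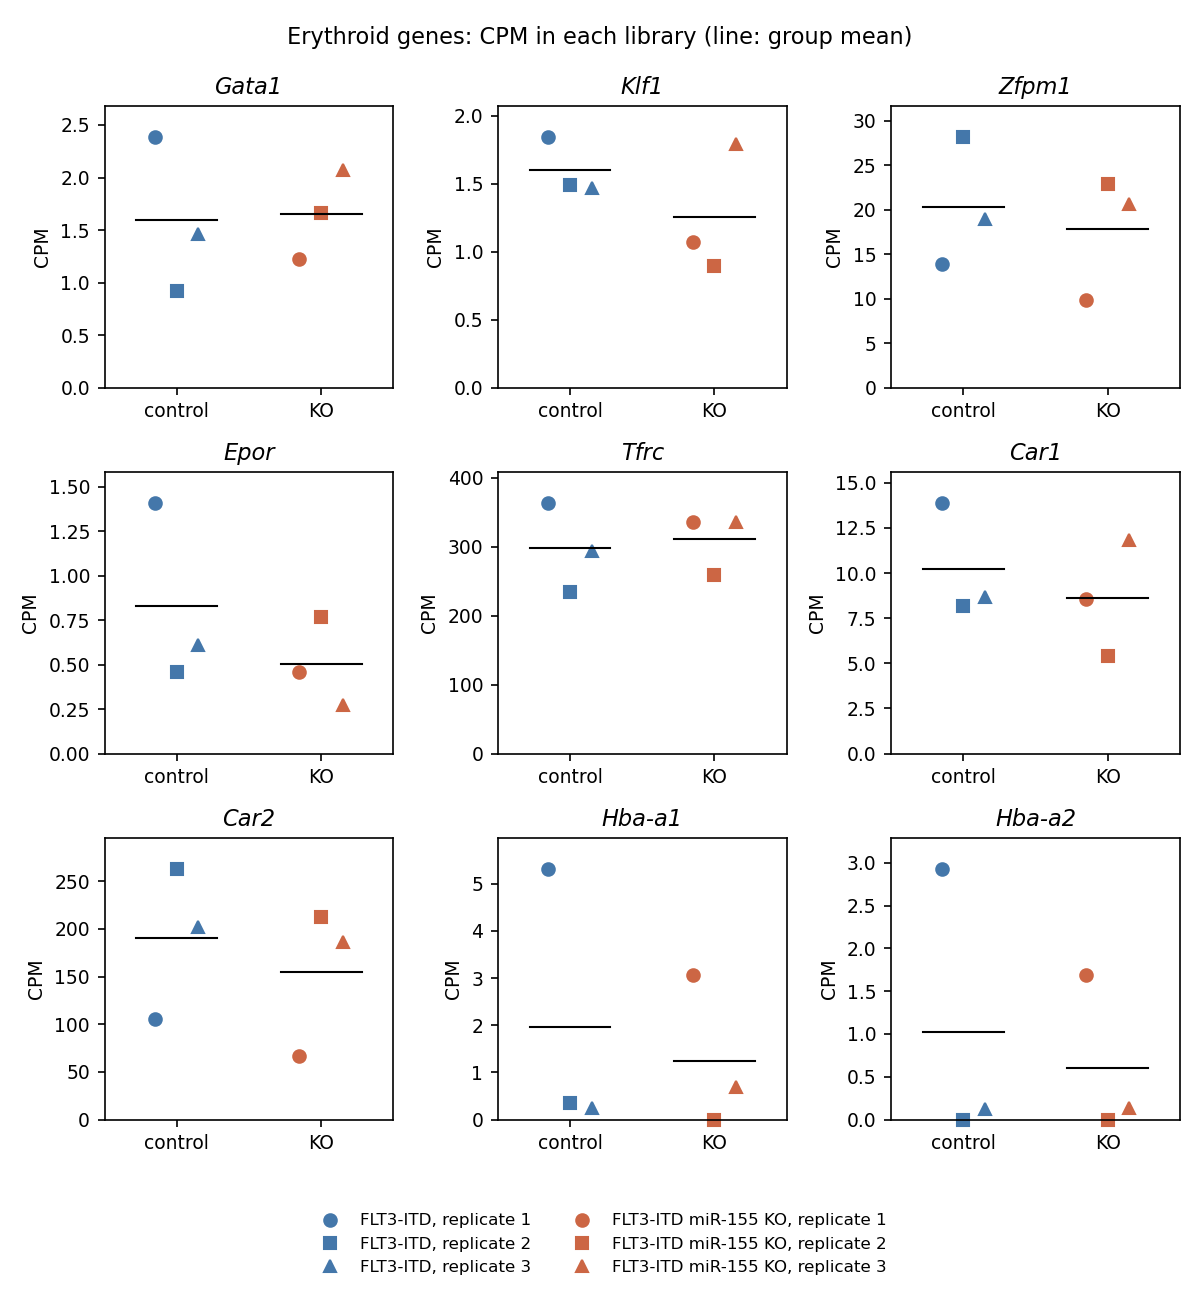
CPM (linear axis from 0) of each erythroid gene in the 3 control and 3 KO libraries; points are libraries, with shape for the replicate number, and lines are group means. The groups overlap in every panel, and the circles (number 1) are the lowest points of each group for Car2 and Zfpm1 and the highest for Hba-a1 and Hba-a2.

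Among the regulators, Gata1, the master factor of erythroid and megakaryocyte cells (chromosome X, 7959260 to 7978071 on GRCm38), was counted 22, 8 and 12 times in the control against 8, 13 and 15 in the KO. The control group thus held both the highest and the lowest level, and the KO values lay between them. Mean levels were 1.59 ± 0.744 and 1.65 ± 0.421 CPM (SD, n = 3), and the log2 fold change was 0.05 ± 0.43 in edgeR (SE), at an adjusted p of 0.9995. Its 95% interval ran from -0.95 to 1.06. Without both libraries of number 1 the log2 fold change of Gata1 was 0.64 (edgeR, adjusted p 0.978).

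Klf1, the activator of globin and red cell membrane genes (chromosome 8, 84901928 to 84905291), had 17, 13 and 12 counts in the control and 7, 7 and 13 in the KO. KO replicates 1 and 2 were the lowest libraries and KO replicate 3 lay among the controls. Levels were 1.60 ± 0.213 and 1.25 ± 0.474 CPM (SD, n = 3), and differed by -0.35 ± 0.37 on the log2 scale in edgeR (SE; 95% interval -1.21 to 0.51; adjusted p 0.9995). It was -0.15 without both libraries of number 1 (adjusted p 0.9993) and -0.76 without both of number 3 (adjusted p 0.9996).

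Zfpm1, which encodes FOG1, the cofactor that GATA1 needs in erythroid and megakaryocyte cells (chromosome 8, 122282141 to 122337251), was better counted than its partner. It measured 13.9, 28.3 and 18.9 CPM in the control against 9.81, 22.9 and 20.7 CPM in the KO. In both groups replicate 1 was lowest and replicate 2 highest, so the order over the numbers was shared while the groups overlapped. In edgeR the log2 fold change was -0.19 ± 0.36 (SE, adjusted p 0.9995), and -0.11 without both libraries of number 1 (adjusted p 0.9993). Zfpm1 lies on the same strand as the overlapping gene model Gm20388, which had 668 to 1062 counts per library, so its counts are uncertain.

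Of the receptors, Epor, the erythropoietin receptor (chromosome 9, 21958897 to 21963506), was at the edge of detection. It had 13, 4 and 5 counts in the control and 3, 6 and 2 in the KO libraries, and did not pass the filter on low counts. Control replicate 1 stood above the other 5 libraries, which overlapped. Fitted without that filter, edgeR gave a log2 fold change of -0.71 ± 0.64 for Epor (SE, adjusted p 0.938), so no difference was called. The parts of depth and of spread between pools in this were not tested.

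Tfrc, the transferrin receptor (chromosome 16, 32608920 to 32632794), was the best counted member, with 2024 to 3348 counts per library. Its levels were 364, 234 and 294 CPM in the control and 336, 259 and 336 CPM in the KO. Replicate 2 was the lowest of each group, and the groups overlapped over most of their range. In edgeR the log2 fold change was 0.06 ± 0.18 (SE, adjusted p 0.9995), and its 95% interval, -0.35 to 0.47, was the narrowest of the 6 tested members. Without both libraries of number 1 it was 0.17. This gene carried the only seed match printed above.

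The carbonic anhydrases, which hydrate carbon dioxide, lie on chromosome 3 (Car1 at 14766216 to 14808368, Car2 at 14886273 to 14900770), and their order over the libraries differed. Car1 measured 13.9, 8.15 and 8.68 CPM in the control against 8.58, 5.38 and 11.9 CPM in the KO. Control replicate 1 was its highest library and KO replicate 2 its lowest. Car1 lies on the same strand as the overlapping processed pseudogene Gm16399, so its counts are uncertain. Car2 measured 105, 263 and 202 CPM in the control and 66.97, 212 and 186 CPM in the KO, so both libraries of number 1 were lowest, below the 4 others. Both libraries of number 1 were also below the 4 others in Zfpm1, as they were in 18.3% of all genes tested.

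Car1 differed between the groups by a log2 fold change of -0.26 ± 0.34 (SE) and Car2 by -0.29 ± 0.46, and edgeR gave both an adjusted p of 0.9995. The sign of Car1 rested on number 1, since without both of its libraries the value was 0.03 (adjusted p 0.9993), and that of Car2 was then -0.22 (adjusted p 0.957). Car2 was the only member lower in the KO in all 3 pairs of equal number, with differences in log2 CPM of -0.65, -0.31 and -0.12 for numbers 1, 2 and 3. Over all genes tested, 16.5% were lower and 15.1% higher in all 3 pairs. With the replicate number as a block, the SE of Car2 shrank from 0.46 to 0.10 around a log2 fold change of -0.35. Its adjusted p was then 0.308 in edgeR, while 1.36% of all genes were called with the block. Unadjusted, the p of Car2 was 0.0118 in edgeR with the block. Of the 6 tested members 1 was then under 0.05, against 1238 of all 13217 genes tested. In the other 5 tested members the pairs disagreed in direction, and with the block their adjusted p lay between 0.731 and 0.970.

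**Figure D3:**
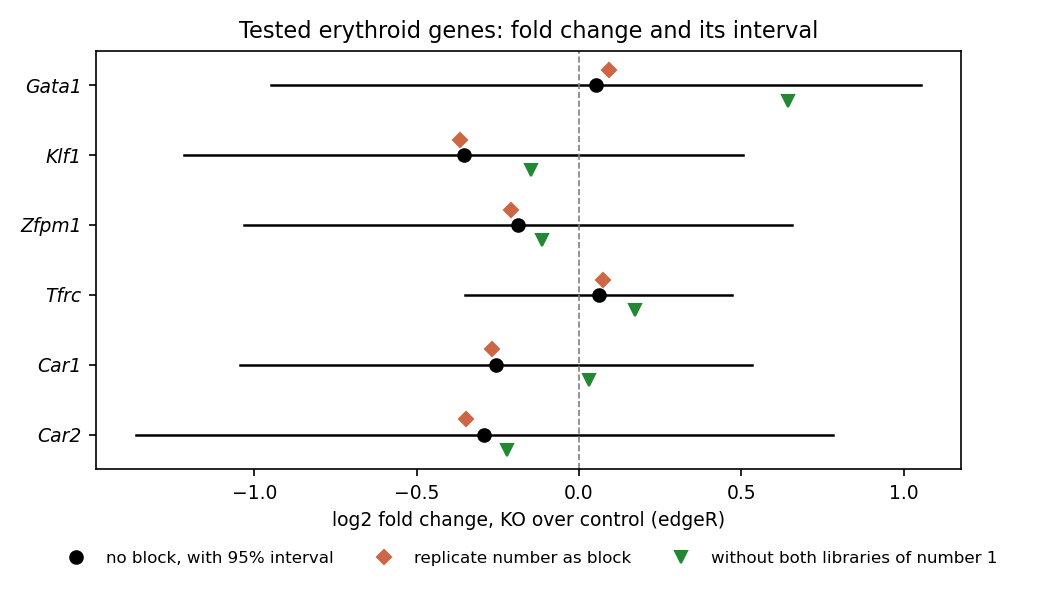
Log2 fold change (KO over control, edgeR) of the 6 tested erythroid genes; black points and lines are the estimate and its 95% interval, diamonds the estimate when the replicate number is a block, and triangles the fit without both libraries of number 1. Every interval includes 0, and only Gata1 moves by more than 0.5 when the libraries of number 1 are left out.

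The alpha globins were the members that varied most between libraries. Hba-a1 (chromosome 11, 32283511 to 32284465) had 49, 3 and 2 counts in the control against 20, 0 and 5 in the KO. Hba-a2 (chromosome 11, 32296489 to 32297298) had 27, 0 and 1 counts in the control and 11, 0 and 1 in the KO. Both libraries of number 1 were above the 4 others, as in 16.1% of all genes tested, and in those 4 libraries each gene had 5 counts or fewer. Neither gene passed the filter on low counts.

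Only 1 library of each group held enough alpha globin counts to give a share of Hba-a1, so the shares compare libraries and not conditions. It was 49 of 76 counts in control replicate 1, or 64.5% (95% Clopper-Pearson interval 52.7 to 75.1%), and 20 of 31 counts in KO replicate 1, also 64.5% (45.4 to 80.8%). These intervals cover counting error only, and the split between the near-identical genes is uncertain as said above. Summed over both genes, the level was 8.26, 0.345 and 0.367 CPM in the control and 4.75, 0 and 0.827 CPM in the KO. The groups overlapped, and the difference of mean log2(CPM + 0.5) was -0.29, with p = 0.7 in a two-sided exact permutation test (n = 3 and 3), whose smallest possible p is 0.1. Without both libraries of number 1, an alternative added after seeing the data, it was -0.07 (exact permutation p = 1, n = 2 and 2, smallest possible p 0.333). A count of 0 allows up to 3 counts, which corresponded to 0.384 CPM in KO replicate 2, and this limit covers counting error only. Fitted without the filter on low counts, Hba-a1 and Hba-a2 had log2 fold changes of -0.73 (SE 1.1) and -0.86 (SE 1.28) in edgeR, and both had an adjusted p of 0.978.

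A beta globin and other late red cell genes, chosen here after their values were seen, were also highest in the libraries of number 1. Hbb-bs, an adult beta globin, had 336, 9 and 17 counts in the control against 179, 5 and 23 in the KO. Alas2, the erythroid enzyme of haem synthesis, had 31, 1 and 1 counts in the control and 12, 1 and 2 in the KO. Slc4a1, the anion exchanger of the red cell membrane, had 26, 5 and 3 counts in the control and 11, 2 and 3 in the KO. In each of these genes and in both alpha globins, control replicate 1 was highest and KO replicate 1 next. The regulators did not share that order: KO replicate 1 was below 4 of the 5 other libraries in Gata1 and in Klf1. Most macrophage genes had that order too, and in the others KO replicate 1 was highest. Vcam1, an adhesion molecule, had that order, with 237, 12.2 and 16.9 CPM in the control and 152, 13.2 and 29.8 CPM in the KO. The part of the macrophage signal in the globin levels was not tested. In bulk RNA, more cells of a type and more RNA per cell cannot be told apart.

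**Figure D4:**
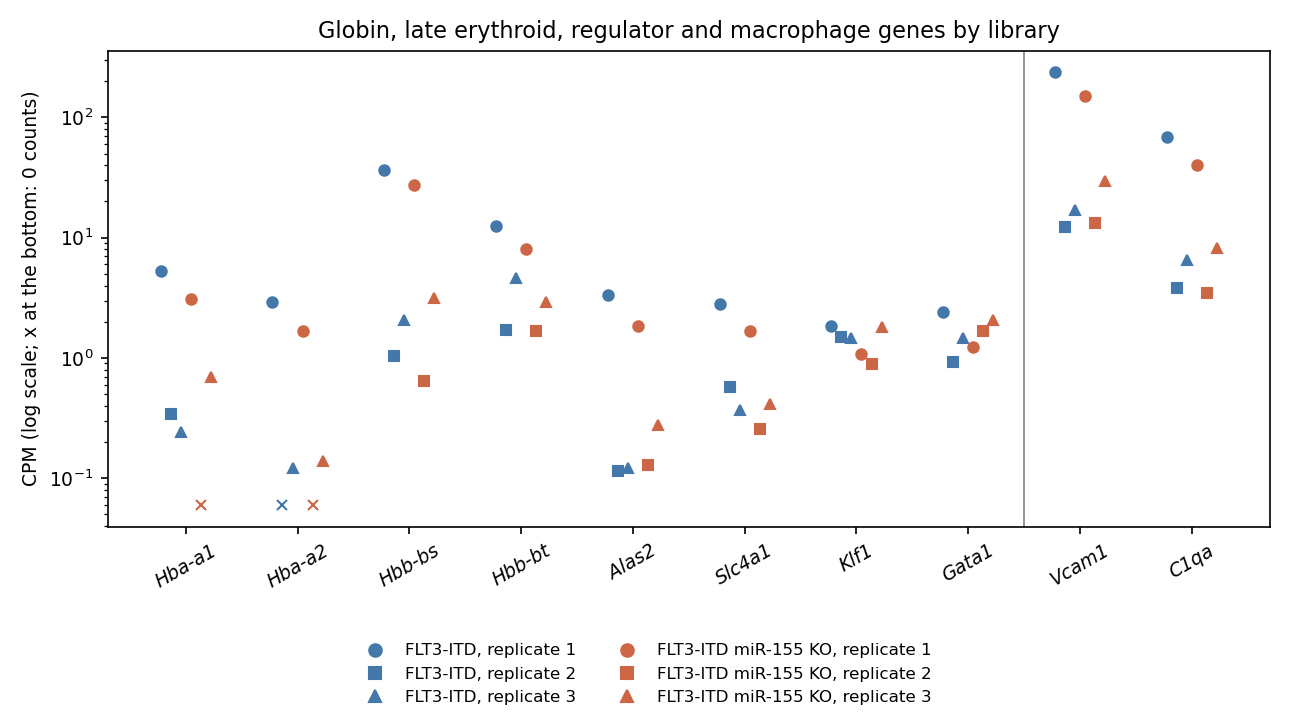
CPM (log axis) of globins, Alas2, Slc4a1, the regulators Klf1 and Gata1 and, right of the line, 2 macrophage genes in each library; colour gives the group, shape the replicate number, and crosses mark 0 counts. The circles (number 1) are the 2 highest points of each gene except Klf1 and Gata1.

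The wider erythroid programme was read through 7 lists of related genes, and none held a gene called in edgeR or DESeq2. Erythroid transcription factors (18 tested) had a median log2 fold change of -0.02, 10 being below 0, and 0 were under an unadjusted p of 0.05 in edgeR. The smallest p belonged to Sox6, a repressor of embryonic globin (0.70 ± 0.39, SE), Spi1, the myeloid factor that opposes GATA1 (0.24 ± 0.15), and Gfi1b, a repressor needed for red cell and platelet formation (-0.27 ± 0.29), all at an adjusted p of 0.9995. Spi1 was higher and Gfi1b lower in the KO in all 3 pairs. Of the 18 genes, 5 were lower and 1 was higher in all 3 pairs, against 16.5% and 15.1% of all genes tested. Both libraries of number 1 were below the 4 others in 9 of the 18, among them Gata2, Tal1, Lmo2, Gfi1b and Nfe2, against 18.3% of all genes tested. They were above the 4 others in 2 of the 18, Spi1 and Ikzf1, against 16.1% of all genes.

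Globin and haem synthesis genes (17 of 19 tested) had a median of -0.03, with 10 below 0, and 0 were under an unadjusted p of 0.05. Abcb10, a mitochondrial transporter that supports haem synthesis (-0.23 ± 0.10, SE), Alad, the second enzyme of the pathway (-0.25 ± 0.13), and Abcb6, a porphyrin transporter (0.23 ± 0.19), had the smallest p, all at an adjusted p of 0.9995 in edgeR. Abcb10 and Alad were lower in the KO in all 3 pairs. Of the 17 genes, 3 were lower and 1 was higher in all 3 pairs, against 16.5% and 15.1% of all genes tested. Iron handling genes (15 of 16 tested) had a median of 0.02, and 1 had an unadjusted p under 0.05, the iron chaperone Pcbp1 (0.28 ± 0.12, adjusted p 0.9995). The ferritin light chain Ftl1 (0.24 ± 0.13) and the mitochondrial iron importer Slc25a37 (-0.12 ± 0.12, lower in all 3 pairs) followed. Of the 15 iron handling genes tested, 1 was lower and 2 were higher in all 3 pairs.

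Membrane and cytoskeleton genes of red cells (14 of 23 tested) had a median of -0.02, and 0.02 without both libraries of number 1. The erythroblast membrane protein gene Ermap (-0.80 ± 0.39, SE) and the water channel Aqp1 (-0.50 ± 0.25) were lower in the KO in all 3 pairs, and Kel, a blood group antigen (0.65 ± 0.62), was not. None of these 3 passed, all at an adjusted p of 0.9995 in edgeR.

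Erythropoietin signalling genes (21 of 22 tested) had a median of 0.08, with 11 above 0, and -0.03 without both libraries of number 1. Mcl1, a survival protein (0.36 ± 0.15, SE), was the 1 gene with an unadjusted p under 0.05, and Grb2, an adaptor (0.38 ± 0.22), and Jak2, the kinase that the receptor uses (0.27 ± 0.18), followed, all at an adjusted p of 0.9995 in edgeR. Mcl1 and Grb2 were higher in the KO in all 3 pairs. Of the 21 genes, 5 were lower and 4 were higher in all 3 pairs, against 16.5% and 15.1% of all genes tested. Genes of early erythroid progenitors (22 of 26 tested) had a median of -0.24, with 17 below 0, and -0.15 without both libraries of number 1. Trib2, a pseudokinase, had 28, 18 and 28 counts in the control and 5, 8 and 8 in the KO. Its groups did not overlap in CPM, which held for 2 of the 22 and for 8.22% of all genes tested. The other of the 2 was higher in the KO. Trib2 differed by -1.54 ± 0.34 on the log2 scale (SE), and edgeR gave an adjusted p of 0.321 (0.132 with the block). Ermap and Aqp1 were the next of that list, which shares them with the membrane list.

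Megakaryocyte genes, of the lineage that shares its precursor with red cells (12 of 18 tested), had a median of -0.15, with 9 below 0, and -0.04 without both libraries of number 1. Mmrn1, a platelet and endothelial protein also found in stem cells, had 123, 142 and 152 counts in the control and 30, 78 and 71 in the KO. Its groups did not overlap in CPM, which held for 1 of the 12 and for 8.22% of all genes tested. Mmrn1 differed by -0.97 ± 0.30 on the log2 scale (SE), at an adjusted p of 0.750 in edgeR and 0.0666 with the block. Rab27b (-0.51 ± 0.46) and Cd9 (-0.13 ± 0.16) did not pass either. With the block, 0 genes of these 7 lists were called, against 1.36% of all genes tested.

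**Figure D5:**
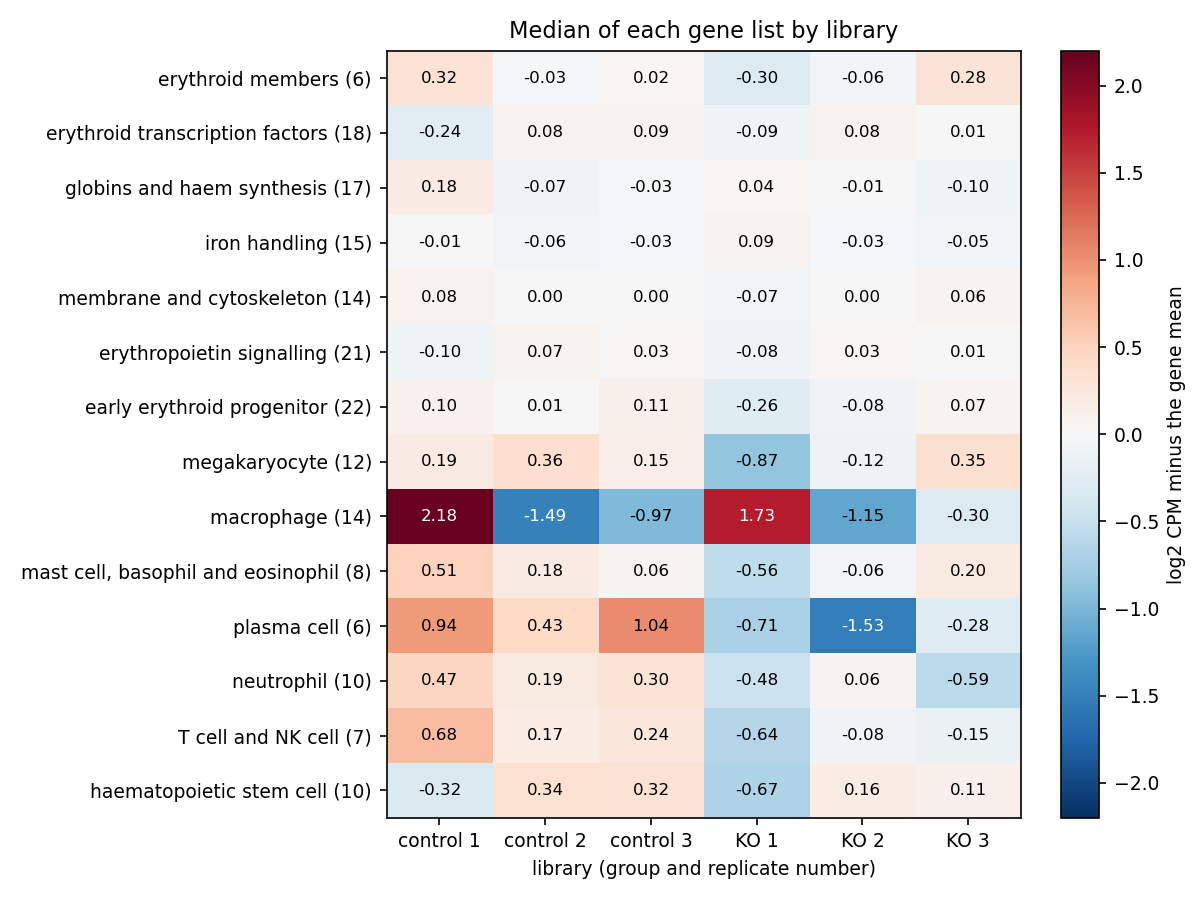
Median over the tested genes of each list (number in brackets) of log2 CPM minus the gene's mean over the 6 libraries, by library; red is above and blue below the mean. The macrophage row separates number 1 (2.18 and 1.73) from the rest, while the row of the 6 tested erythroid genes runs from -0.30 in KO replicate 1 to 0.32 in control replicate 1.

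The level of the 6 tested members over the libraries, taken as their median log2 CPM relative to each gene's mean, was 0.32, -0.03 and 0.02 in the control against -0.30, -0.06 and 0.28 in the KO. Control replicate 1 was highest and KO replicate 1 lowest, KO replicate 3 was close to the highest, and the groups overlapped. Among 10302 other genes above a mean log2 CPM of 3, the nearest in this pattern were Mcat, Pxylp1, Ggct, Acy1 and Mcm4. Their root mean square differences from it were 0.059 to 0.083 on the log2 scale over 6 libraries. Nearest to Klf1 alone were Mt1, a metallothionein, Gpkow and Zc3h8, at 0.080 to 0.093. With 6 libraries and so many genes, near patterns are found easily, and these names are a description only.

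Markers of other cells that the gate could hold were read beside these levels. Of all genes tested, 8.22% did not overlap in CPM between the groups. Plasma cell genes (6 tested) did not overlap between the groups in 6 of 6 cases, with a median log2 fold change of -1.65 and a summed level of 3047 to 4399 CPM in the control and 670.0 to 1729 CPM in the KO. Neutrophil genes (10 tested) did not overlap in 6 cases (median -0.67). Their sums did overlap (2347 to 3264 CPM in the control, 2025 to 2846 CPM in the KO). Mpo alone gave 1301 to 1971 CPM of these sums, with overlapping groups and a log2 fold change of 0.08 ± 0.20 (SE). T and NK cell genes (7 of 8 tested) did not overlap in 3 cases (median -0.63), and summed to 92.4 to 94.8 CPM in the control and 51.2 to 81.6 CPM in the KO. In edgeR without the block 0 genes of these 3 lists were called, against 0.159% of all genes tested. An unadjusted p under 0.05 was reached by 6 plasma cell, 6 neutrophil and 3 T and NK cell genes, against 3.9% of all genes. Only with the block were 5 plasma cell genes and 2 T and NK cell genes called, against 1.36% of all genes. None of the genes in these 3 lists was at 0 over all libraries.

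Mast cell, basophil and eosinophil genes, a group that also uses Gata1 (10 genes in the table, 8 tested), had a median log2 fold change of -0.17. Without both libraries of number 1 this median was -0.03. The sum of the 10 genes did not overlap between the groups (93.3 to 116 CPM in the control, 45.8 to 68.5 CPM in the KO). This rested on Prg2, the major basic protein of eosinophils, which was singled out after its values were seen. Prg2 measured 51.9, 69.4 and 75.0 CPM in the control and 21.3, 13.2 and 25.8 CPM in the KO. Without Prg2 the other 9 genes summed to 41.4, 43.2 and 41.1 CPM in the control and 24.5, 39.8 and 42.7 CPM in the KO, so the groups overlapped. The adjusted p of Prg2 was 0.0881 in edgeR and passed only with the block (0.00929), with which 1.36% of all genes tested were called. None of the 10 was at 0 over all libraries. Stem cell genes, such as Hlf and Procr, were lower in both libraries of number 1 in 7 of 11 cases, as Car2 and Zfpm1 were. Of all genes tested, 18.3% were lower there. The part of any of these lists in the levels of the erythroid genes was not tested.

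In the authors' deposited table the same 9 genes had log2 fold changes from -0.76 (Hba-a2) to 0.06 (Tfrc), all with an adjusted p of 0.9999. In that deposited comparison 0.639% of 16577 genes had an adjusted p under 0.05.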

How the data were processed

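Counts per gene and library were deposited by the authors as whole numbers with no normalization. The deposited FPKM held the same information, since FPKM over count varied between libraries by at most 1.97e-08% (CV) over 8503 genes once each library was scaled. The authors' deposited log2 fold changes and adjusted p-values were copied only. The tools named are Novoalign 2.08.01 and DESeq2 1.10.1, on mm10, per the submitters' processing notes. How reads were counted, with which annotation and whether by strand, is not given in the sources used here.

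Groups and replicate numbers came from the titles. The whole table was tested with edgeR 4.0.16 in R 4.3.3: TMM, filterByExpr (minimum count 10, minimum total 15), the quasi-likelihood F test (two-sided) for group, and Benjamini-Hochberg adjustment at 0.05, checked on simulated counts. SE came from the F statistic, and 95% intervals from its degrees of freedom. Alternatives used DESeq2 1.42.0, limma-voom (limma 3.58.1), other filters, size factors and library sizes, left-out libraries, and the replicate number as a block. Libraries of equal number 1, 2 and 3 deviated together (r = 0.57, 0.53 and 0.22 over 13217 genes). Between libraries of unequal number r ran from -0.51 to 0.13 (control replicate 3 with KO replicate 2), so number 3 was set apart least. The numbers were treated as pairs from the data, since no label says what a number marks.

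Named genes were the 9 members, from each list the genes that passed and the 3 with the smallest p, and the nearest in pattern. Other genes (Gata2, Tal1, Lmo2, Nfe2, Ikzf1, Hbb-bs, Alas2, Slc4a1, Vcam1, Hlf, Procr, Prg2, Mpo) were named outside this rule, after their values were seen. Members and lists were chosen with earlier results of these data known. Of 22475 identifiers, 21966 matched GENCODE M21 (GRCm38, the assembly of mm10).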

Additional observations from a re-analysis of the deposited data

How the results depend on the processing

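No member was called under any of 16 alternatives, where the smallest adjusted p of a member was 0.308 (Car2, replicate block). Of 94 member values, 82 kept their direction and 12 reversed, none past the threshold. With 1 library left out, the log2 difference ran from -0.22 to 0.48 for Gata1, -0.70 to -0.16 for Klf1, -0.56 to 0.029 for Car1, -0.59 to 0.073 for Car2, -0.084 to 0.23 for Tfrc, -0.42 to 0.13 for Zfpm1 and, for the summed alpha globins, -1.19 to 0.83. Both libraries of a number left out gave 0.030 for Car1 without number 1, -0.23 for Gata1 without number 2, and -0.19 for Gata1 and -0.0043 for Tfrc without number 3. The count of 21 genes called overall (2 higher, 19 lower) was 97 (4 and 93) without a low-count filter, 127 (7 and 120) in DESeq2 and 180 (42 and 138) under the replicate block. It was 0 to 27 (0 to 3 higher, 0 to 24 lower) with 1 library left out, and 0 without control replicate 1 or without control replicate 3. Without both libraries of number 1 there were 4 higher genes, without number 2 there were 10 (0 and 10) and without number 3 there were 6 (0 and 6). With 1 library left out, list medians ran from -0.37 to 0.039 for the erythroid members, -0.40 to -0.11 for early progenitor genes, -0.044 to 0.054 for iron handling and -0.057 to 0.063 for erythropoietin signalling. The last was -0.034 without number 1 and 0.0017 without number 3. Fits with libraries left out have fewer samples; the other causes were not tested. The replicate block changed no call of a member or of a gene in the 7 lists. At these depths Gata1, Klf1, Epor and the alpha globins rest on few counts, which limits what could be detected.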
